A study of Mus musculus with 24 samples.

Results

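This account follows 9 cardiac myosin genes through 24 mouse heart RNA libraries: the myosin heavy chain genes Myh6, Myh7 and Myh7b, the light chain genes Myl2, Myl3, Myl4 and Myl7, the light chain kinase gene Mylk3, and Mhrt, a long noncoding RNA gene on the opposite strand at the Myh7 locus. They were chosen by symbol, as the rows of the gene count table whose Ensembl identifiers carry these names. All 9 were found among 43432 identifiers, and all 9 passed the filter on low counts in each comparison. Total RNA was taken from frozen hearts of C57BL/6 mice, depleted of ribosomal RNA and sequenced, with 4 libraries in each of 6 groups. The group Sedentary is the control without running, and the group Running had 8 weeks of wheel running. TAC-LVH and TAC-HF hearts had transverse aortic constriction (TAC) for 2 and 8 weeks. This operation narrows the aortic arch, so that the left ventricle must pump against a higher pressure. The labels do not spell out LVH and HF, which in this field usually stand for left ventricular hypertrophy and heart failure. Each TAC group has a sham-operated group, Sham-LVH and Sham-HF, whose times after surgery the labels do not give. Age, sex and the part of the heart sampled are not given in the labels either, and no label says that the replicates are separate animals, so p-values measure the spread between these samples. The labels name no mutation or transgene in any group. The study's title names a long noncoding RNA, lncExACT1, and the gene DCHS2.

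Myosin is the motor of the thick filament. Each molecule joins a pair of heavy chains, which split ATP and pull on actin, to essential and regulatory light chains that stiffen and tune the lever arm. Adult mouse ventricle uses mainly the fast alpha heavy chain from Myh6. The slower beta heavy chain from Myh7 is the main form before birth and returns when the heart is overloaded. Myl2 and Myl3 encode the regulatory and essential light chains of ventricle, and Myl7 and Myl4 those of atrium.

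The heavy chain genes are also hosts of microRNAs: a GENCODE annotation places Mir208a, Mir208b and Mir499 inside introns of Myh6, Myh7 and Myh7b, on the same strand and outside every exon. The mature sequences are shown because after TAC the host Myh7 rose while the hosts Myh6 and Myh7b fell. They come from RefSeq (GRCm38.p6), are written 5′ to 3′, and have the seed (bases 2 to 8) in capitals. The first lies at chr14:54949072-54949093 (minus strand), the second at chr14:54975710-54975731 (minus strand) and the third at chr2:155622893-155622913 (plus strand).
mmu-miR-208a-3p: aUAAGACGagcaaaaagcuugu
mmu-miR-208b-3p: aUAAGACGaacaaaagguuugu
mmu-miR-499-5p: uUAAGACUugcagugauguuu
The microRNAs of Myh6 and Myh7 share 1 seed and differ at 3 of 22 bases. The seed of the Myh7b microRNA differs from theirs at 1 base. All 3 precursor genes are listed with 0 counts in the 24 libraries, so the values below are of the host transcripts and not of the microRNAs.

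Myh6 and Myh7 lie next to each other on chromosome 14 and moved in opposite directions after TAC. The 250 bases before 1 annotated start of each gene are therefore given as well. They are RefSeq sequences of GRCm38.p6, minus strand, at chr14:54966608-54966857 for Myh6 and chr14:54994627-54994876 for the first of 2 start sites of Myh7. Capitals mark the match to CATTCC or its reverse complement GGAATG, the core of the MCAT element bound by TEAD factors.
Myh6: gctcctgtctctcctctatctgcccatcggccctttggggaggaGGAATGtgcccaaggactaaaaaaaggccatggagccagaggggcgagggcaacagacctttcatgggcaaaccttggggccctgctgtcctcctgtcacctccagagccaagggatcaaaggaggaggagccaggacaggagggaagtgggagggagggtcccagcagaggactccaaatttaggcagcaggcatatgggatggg
Myh7: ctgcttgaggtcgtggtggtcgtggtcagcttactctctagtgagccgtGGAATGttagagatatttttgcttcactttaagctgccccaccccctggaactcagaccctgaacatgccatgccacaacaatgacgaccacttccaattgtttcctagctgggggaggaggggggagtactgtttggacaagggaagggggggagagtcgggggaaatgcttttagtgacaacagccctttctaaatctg
Each printed window holds 1 such match, starting 206 bases before the Myh6 start and 201 bases before the Myh7 start, and the window of the second Myh7 start site holds none. Of 32851 windows of this length in the table, 12.6% hold at least 1. Both printed windows also hold 1 match to CANNTG (E-box), as do 66.2% of windows, and it does not overlap the capitals. Searched on both strands, neither has AGATAA (in 9.99% of windows), AGGTCA (14%) or TATAAA (12.4%). All 9 members have such a window. A match is a description of letters and not a bound site.

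Total counts per library ranged from 16802939 to 39512101 (median 22845050). Mitochondrially encoded transcripts held 50.7% to 73.6% of them and left 5949640 to 12932067 counts for other genes, of which the 9 myosin genes took 2.21% to 4.07%. Levels are given as CPM, counts relative to the library total after TMM scaling over all 24 libraries. Per kilobase of annotated exon, Sedentary hearts had 1761 ± 60.8 (SD, n = 4) CPM of Myh6, 722 ± 76.7 of Myl2 and 406 ± 60.5 of Myl3. Mylk3 followed with 47.5 ± 4.09. Mhrt (11.7 ± 2.12), Myh7 (9.61 ± 2.42), Myl7 (8.4 ± 7.68) and Myh7b (6.04 ± 0.895) came next on the same scale, and Myl4 was lowest with 1.75 ± 1.4. Myh7b did not overlap Mhrt or Myh7, Mhrt and Myh7 overlapped, and the wide range of Myl7 reached all 3 and Myl4. In TAC-LVH hearts Myh7 stood above Mylk3, at 95.8 ± 32.3 against 27.2 ± 2.34 CPM per kilobase, and Myh6 was still first at 804 ± 73.3.

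**Figure D1:**
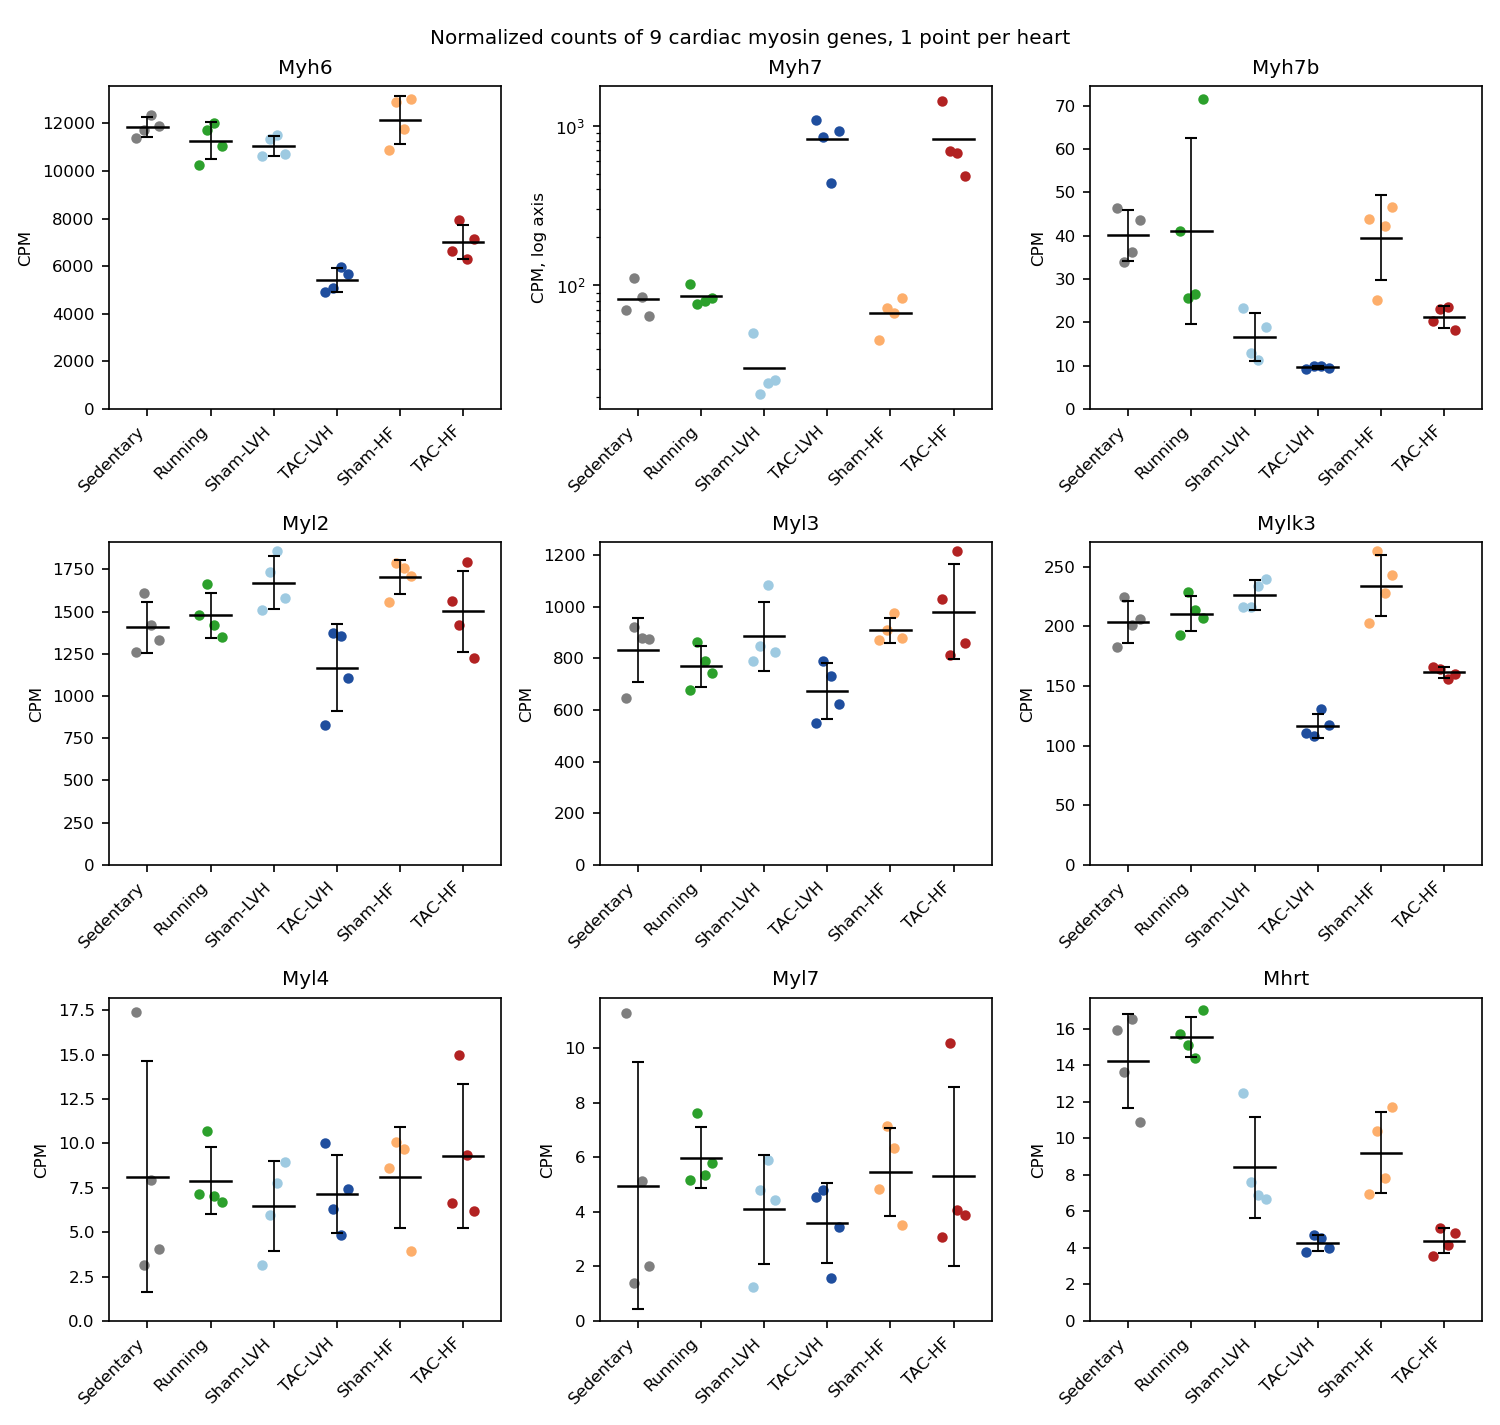
Normalized counts (CPM) of the 9 genes in each group, with 1 point per library and a bar at the arithmetic mean of 4. Error bars are the SD, except for Myh7, whose axis is logarithmic. Myh7 lies at 436 CPM or more in every TAC library and at 111 or less in every other one, while the TAC and sham ranges of Myl4 and Myl7 overlap.

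Some values could be shared between genes by the counting. Of the 31-base words of Myh7 exons, 22.5% also occur in Myh6, and 29.1% of those of Myh6 in Myh7. Mhrt overlaps Myh7 exons with 39.9% of its own exon bases, on the opposite strand, and 22.9% of its words occur in Myh6 on either strand. The strand setting of the counting is not given in the sources used here, so reads from Mhrt and from the overlapping part of Myh7 may not be told apart. The same holds for reads of the words that Mhrt shares with Myh6. In Sedentary hearts Myh6 had a mean of 11841 CPM and Mhrt 14.2 CPM. The part of Myh6 reads in the Mhrt counts was not tested. Myl2 and Myl7 share no such word, nor do Myl3 and Myl4.

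TAC at 2 weeks. The comparison of TAC-LVH with Sham-LVH asks how the myosin genes stand at the earlier time of pressure overload. The beta heavy chain gene Myh7 rose 27.4-fold, and 5 members fell: the alpha heavy chain gene Myh6, Myh7b, the noncoding Mhrt, the ventricular regulatory light chain gene Myl2 and the kinase gene Mylk3. The essential light chain gene Myl3 and the atrial light chain genes Myl4 and Myl7 did not pass the test. So 6 of 9 members were called, 1 higher and 5 lower, beside 33.2% of 14224 genes tested in this comparison (17.1% higher, 16.1% lower; edgeR, adjusted p under 0.05).

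Myh7 stood at 1090, 843, 436 and 931 CPM in the TAC-LVH libraries and at 50.2, 20.8, 24.3 and 25.6 CPM in Sham-LVH. The groups lie far apart, and both hold 1 library away from the other 3, the lowest in TAC-LVH and the highest in Sham-LVH. The log2 fold change was 4.77 (SE 0.385; edgeR quasi-likelihood test, adjusted p = 2.74e-05). Without the high sham library it was 5.13, and all 8 fits that left out 1 library gave between 4.62 and 5.13.

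Myh6 had 4932, 5062, 5965 and 5678 CPM after TAC and 10624, 11330, 11504 and 10729 CPM in the shams. No TAC library came near a sham library. It fell 2.03-fold (log2 fold change -1.02, SE 0.124; edgeR adjusted p = 4.57e-05). In CPM, which are relative values, the fall of Myh6 was larger than the rise of Myh7. Myh6 and Myh7 together made 6234 ± 328 CPM in TAC-LVH and 11077 ± 426 in Sham-LVH.

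Mylk3 encodes the kinase of cardiomyocytes that phosphorylates the regulatory light chain. It had 111, 108, 131 and 117 CPM after TAC against 216, 216, 234 and 240 in the shams, a 1.93-fold fall (log2 -0.95, SE 0.101; edgeR adjusted p = 1.7e-05). Its substrate gene Myl2 had 827, 1374, 1358 and 1107 CPM against 1512, 1734, 1860 and 1580 CPM, with no overlap. Myl2 fell 1.43-fold (log2 -0.51, SE 0.16; edgeR adjusted p = 0.0244). That call was lost without Sham-LVH replicate 2 (adjusted p = 0.0638), Sham-LVH replicate 3 (0.0544) or TAC-LVH replicate 4 (0.0718). Myl3, the essential chain that pairs with it, had 551, 791, 731 and 623 CPM against 789, 848, 1083 and 823 CPM, which touch at 1 library (log2 -0.39, SE 0.146; edgeR adjusted p = 0.0555). Several of the other settings given at the end called Myl3, and scaling to library totals did not.

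Myh7b, a slow-type heavy chain gene whose muscle transcript carries miR-499, varied least among the members in TAC-LVH. Its TAC-LVH values of 9.13, 9.92, 9.82 and 9.41 CPM lay below the sham values of 23.4, 12.9, 11.3 and 18.8 CPM (log2 -0.80, SE 0.196; edgeR adjusted p = 0.00892). Mhrt was low in count as well, with 3.8, 4.69, 4.56 and 3.99 CPM after TAC and 12.5, 7.59, 6.91 and 6.65 CPM in the shams. It fell 1.97-fold (log2 -0.98, SE 0.188; edgeR adjusted p = 0.00161).

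TAC at 8 weeks. The comparison of TAC-HF with Sham-HF puts the same question to the later time. Myh7 rose 12.2-fold, and Myh6, Mylk3, Myh7b and Mhrt fell; the 4 light chain genes were not called. Thus 5 of 9 members were called, 1 higher and 4 lower, beside 29.6% of 13621 genes (14.9% higher, 14.7% lower).

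Myh7 had 1432, 693, 670 and 480.5 CPM in TAC-HF and 45.7, 72.6, 66.9 and 83.5 CPM in Sham-HF (log2 3.61, SE 0.412; edgeR adjusted p = 0.00109). TAC-HF replicate 1 was the highest of all 24 libraries, and without 1 library at a time the value ranged from 3.20 to 3.80. Myh6 had 6629, 7940, 6309 and 7148 CPM against 10888, 12907, 11759 and 13024 CPM, again without overlap (log2 -0.79, SE 0.101; edgeR adjusted p = 7.1e-05).

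Mylk3 was nearly uniform after 8 weeks of TAC, with 166, 164, 156 and 160 CPM, and had 203, 263, 228 and 243 CPM in the shams (log2 -0.54, SE 0.0893; edgeR adjusted p = 0.000567). Myh7b had 20.2, 23.0, 23.6 and 18.2 CPM against 43.9, 25.1, 42.3 and 46.7 CPM (log2 -0.89, SE 0.18; edgeR adjusted p = 0.00508). For both genes every TAC library lay below every sham library, for Myh7b by a small margin at Sham-HF replicate 2. Mhrt had 3.55, 5.06, 4.15 and 4.84 CPM against 6.92, 10.4, 7.8 and 11.7 CPM (log2 -1.05, SE 0.17; edgeR adjusted p = 0.000556).

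The ventricular light chain genes overlapped their shams at this stage. Myl2 had 1564, 1423, 1791 and 1226 CPM in TAC-HF and 1558, 1789, 1759 and 1713 CPM in Sham-HF (log2 -0.18, SE 0.111; edgeR adjusted p = 0.233). Myl3 had 1031, 813, 1217 and 861 CPM against 870, 909, 976 and 877 CPM (log2 0.11, SE 0.118; edgeR adjusted p = 0.506). In both genes the TAC libraries spread more widely than the shams. Without TAC-HF replicate 3, the highest for both, Myl2 was called lower (log2 -0.28, edgeR adjusted p = 0.0421).

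**Figure D2:**
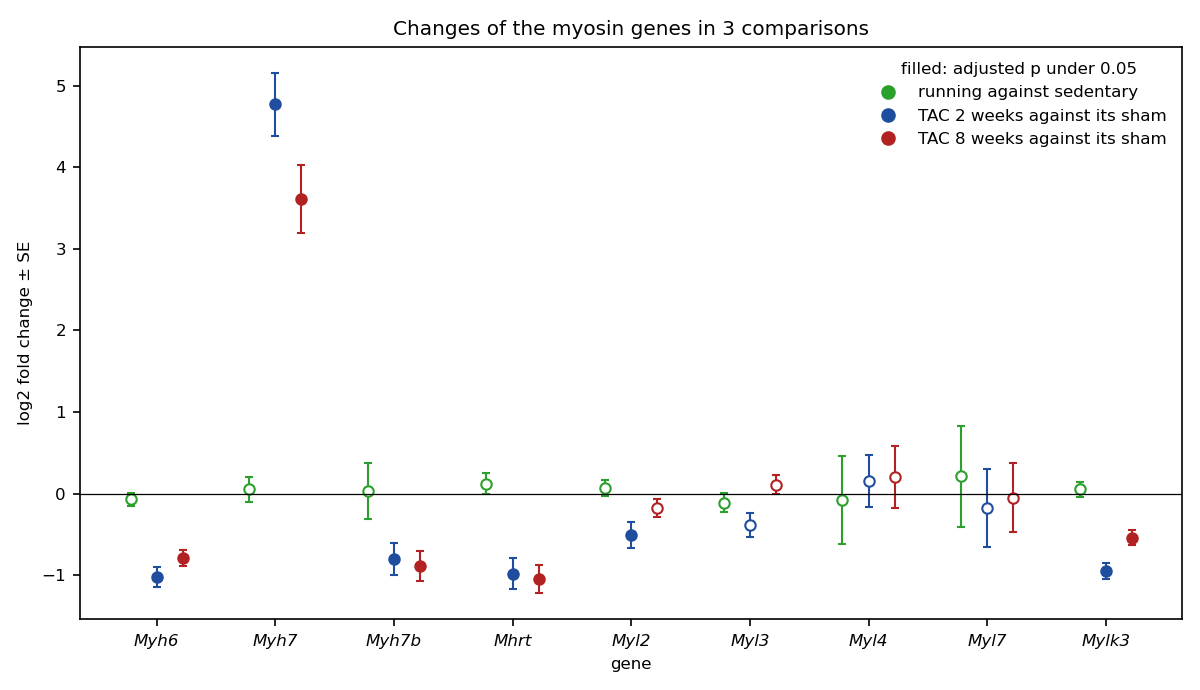
Log2 fold change with its SE (edgeR, 4 libraries against 4) of each gene in 3 comparisons, with filled points where the adjusted p is under 0.05. Myh7 rose at 2 and 8 weeks of TAC (4.77 and 3.61), Myh6, Myh7b, Mhrt and Mylk3 fell at both times, and no running value was called.

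The sizes of the TAC effects depend on the scaling of the libraries. Scaled to library totals alone, the median over all genes tested was 0.41 (2 weeks) and 0.33 (8 weeks) on the log2 scale, in place of 0 at both times. Myh7, Myh6 and Mhrt kept their direction and their call at both times on that scale, and so did Mylk3 at 2 weeks and Myh7b at 8 weeks. Myl2 at 2 weeks (log2 -0.12, edgeR adjusted p = 0.448), Myh7b at 2 weeks (-0.38, adjusted p = 0.0753) and Mylk3 at 8 weeks (-0.20, adjusted p = 0.103) lost theirs. Mitochondrially encoded transcripts held 50.7% to 58.4% of counts in TAC-LVH and 59.8% to 64.5% in Sham-LVH. They held 52.7% to 57.6% in TAC-HF and 61.3% to 67.0% in Sham-HF. The part of this difference in the values scaled to library totals was not tested.

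Markers of other cell types moved with TAC. A list of 7 fibroblast genes summed to 1693 to 2608 CPM in TAC-LVH and 464 to 665 in Sham-LVH, and to 848 to 1129 in TAC-HF and 396 to 531 in Sham-HF. Summed levels of 13 other cardiomyocyte genes were 29413 to 36119 CPM in TAC-LVH and 42442 to 48079 in Sham-LVH, and 34763 to 43236 in TAC-HF and 43895 to 46400 in Sham-HF. Most of this sum is the titin gene Ttn. By gene, 9 of 13 were lower and none higher at 2 weeks (median log2 change -0.39), beside 16.1% lower and 17.1% higher of all genes. At 8 weeks 4 were lower and 3 higher (median -0.05), beside 14.7% and 14.9% of all genes. In bulk samples fewer cells of a type and less RNA per cell cannot be told apart, and the part of these shifts in the myosin changes was not tested.

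TAC at both times. The Myh7 levels of the TAC groups were alike, 825 ± 279 CPM in TAC-LVH and 819 ± 420 CPM in TAC-HF (SD, n = 4), while those of their shams were 30.2 ± 13.5 and 67.2 ± 15.9 CPM. The TAC effect on Myh7 at 8 weeks minus that at 2 weeks was -1.16 (log2, SE 0.537; edgeR adjusted p = 0.262). No member was called in this contrast, in which 1.36% of 14463 genes were called, 0.933% higher and 0.422% lower. Without adjustment 2 members had a p under 0.05, Mylk3 (difference 0.42, SE 0.129, adjusted p = 0.0937) and Myl3 (difference 0.51, SE 0.198, adjusted p = 0.171). DESeq2 called Mylk3 (adjusted p = 0.0218), and so did edgeR without TAC-LVH replicate 3 (0.0398). Mylk3 levels in the TAC groups, 108 to 131 CPM and 156 to 166 CPM, did not overlap, and Myh6 levels did not either (4932 to 5965 and 6309 to 7940 CPM).

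The sham groups were compared as well. Between Sham-HF and Sham-LVH, Myh7 was 2.21-fold higher in Sham-HF (edgeR adjusted p = 0.0921) and Myh7b 2.36-fold (adjusted p = 0.0513). Neither passed the test, nor did another member, beside 3.64% of 13656 genes called (2.2% higher, 1.44% lower). These 2 were the members with an unadjusted p under 0.05. Without Sham-LVH replicate 1, the library with the highest Myh7 of its group, both were called (edgeR adjusted p = 0.00492 and 0.0243), without Sham-HF replicate 2 Myh7b was (adjusted p = 0.0209), and DESeq2 called both with all libraries. Each TAC effect above is relative to its own sham group.

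Running. No member was called in Running against Sedentary hearts, and no gene of 13824 was (0%; edgeR). The lowest unadjusted p among the members was 0.352. Over all genes 665 had an unadjusted p under 0.05, and DESeq2 called 9, none of them a member. Myh7 had 102, 76.2, 79.7 and 83.6 CPM in Running and 70.3, 111, 85.1 and 64.4 in Sedentary hearts, which overlap fully. The difference was 0.05 on the log2 scale, with a 95% interval of -0.30 to 0.39.

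For Myh6 the interval was -0.24 to 0.10, for Mylk3 -0.15 to 0.25 and for Myl2 -0.14 to 0.28, so the changes called for these genes after TAC lie outside them. Mhrt (log2 0.12) and Myl3 (log2 -0.11) had intervals of -0.15 to 0.40 and -0.36 to 0.14. Intervals were wider for Myh7b (-0.77 to 0.83), Myl4 (-1.37 to 1.2) and Myl7 (-1.26 to 1.68), which leave room for larger changes. Running replicate 4 stood apart for Myh7b, with 71.4 CPM beside 41, 25.5 and 26.5 CPM in the other 3.

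The TAC effect minus the running effect was tested as a contrast of the 4 groups. At 2 weeks 5 of 9 members were called, beside 19.1% of 14729 genes (9.5% higher, 9.56% lower): Myh7 (4.72, SE 0.437; edgeR adjusted p = 7.52e-06) higher, and Myh6 (-0.96), Mylk3 (-1.01), Mhrt (-1.11) and Myl2 (-0.59, adjusted p = 0.0369) lower. At 8 weeks 4 were called, beside 11.1% of 14252 genes (5.74% higher, 5.35% lower): Myh7 (3.57) higher, and Myh6 (-0.71), Mylk3 (-0.58) and Mhrt (-1.17) lower. Neither contrast called Myh7b, Myl3, Myl4 or Myl7. The call of Myl2 was lost in 9 of 16 fits that left out 1 library, and scaled to library totals only Myh7 and Mhrt were called in either contrast. These contrasts share the running libraries and hold each TAC group's own values, so they add no independent evidence for the TAC changes.

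Sedentary and sham hearts differed too. Against Sedentary, the mean of the sham groups was lower in Myh7 (-0.87, SE 0.25; edgeR adjusted p = 0.0394) and Mhrt (-0.70, SE 0.184; adjusted p = 0.0232) and higher in Myl2 (0.27, SE 0.0833; adjusted p = 0.037), which makes 3 of 9 members beside 16.8% of 13879 genes (8.96% higher, 7.88% lower). Surgery and cohort cannot be told apart here. Leaving out 1 library left 0 to 4 members called, and none without Sedentary replicate 1 or Sedentary replicate 3. The call of Myh7 was lost in 10 of these 12 fits, that of Myl2 in 8 and that of Mhrt in 2. Without a filter on low counts 1 was called.

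Isoform ratios within hearts. Ratios of 2 genes in the same library do not depend on the scaling between libraries, and 4 were tested over hearts: the Myh7 share of Myh6 plus Myh7 counts, Mhrt to Myh7, Myl7 to Myl2, and Myl4 to Myl3. The first 2 separated every TAC heart from every sham heart, and the light chain ratios overlapped between TAC and sham hearts.

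The Myh7 share was 18.1%, 14.3%, 6.82% and 14.1% in TAC-LVH and 0.471%, 0.183%, 0.21% and 0.238% in Sham-LVH. In TAC-HF it was 17.8%, 8.03%, 9.6% and 6.3%, and in Sham-HF 0.418%, 0.559%, 0.565% and 0.637%. Every TAC heart lay above every sham heart, and in all of them Myh6 still had more counts than Myh7. Sedentary hearts had 0.614%, 0.94%, 0.684% and 0.538%, and Running hearts 0.986%, 0.646%, 0.659% and 0.75%. The differences from the shams were 13.0 and 9.88 percentage points (exact two-sided permutation p = 0.0286 each, the smallest that 4 against 4 can give; adjusted p = 0.0857 over 12 tests). Over both cohorts, with arrangements kept within cohort, the difference was 11.5 points (exact two-sided permutation p = 0.000408, the smallest possible; adjusted p = 0.000816 over 4 tests). For running it was 0.0662 points (exact permutation p = 0.514). Per exon length the shares were somewhat smaller, 10.7% ± 3.88 in TAC-LVH and 8.36% ± 4.19 in TAC-HF.

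Mhrt is transcribed against Myh7 and is known as a cardiac antisense RNA, so its ratio to Myh7 is given for each heart. By gene, Myh7 rose and Mhrt fell after TAC, as given above. The ratio reuses those counts, and the rise of Myh7 alone would lower it. Sham-LVH hearts had 0.248, 0.365, 0.285 and 0.26 Mhrt counts per Myh7 count and TAC-LVH hearts 0.00348, 0.00557, 0.0105 and 0.00429. In Sham-HF the ratio was 0.151, 0.144, 0.117 and 0.141 and in TAC-HF 0.00248, 0.00731, 0.00619 and 0.0101. On the log2 scale it was lower by a difference of -5.72 (52.7-fold) at 2 weeks and -4.57 (23.7-fold) at 8 weeks (exact two-sided permutation p = 0.0286 and adjusted p = 0.0857 for each; over both cohorts -5.14, exact permutation p = 0.000408, adjusted p = 0.000816). Running and Sedentary hearts overlapped (0.154 to 0.204 and 0.122 to 0.227; exact permutation p = 0.743).

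Against Myh6 the picture of Mhrt was different. The Mhrt to Myh6 ratio, not among the tests, was 0.000791 ± 9.55e-05 in TAC-LVH and 0.000766 ± 0.000273 in Sham-LVH, and 0.000627 ± 6.32e-05 in TAC-HF and 0.000752 ± 0.000125 in Sham-HF. These ranges overlap in both pairs. It was 0.0012 ± 0.000218 in Sedentary and 0.00139 ± 0.000171 in Running hearts (SD, n = 4 throughout). Whether words shared by Mhrt and Myh6 enter this ratio was not tested.

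**Figure D3:**
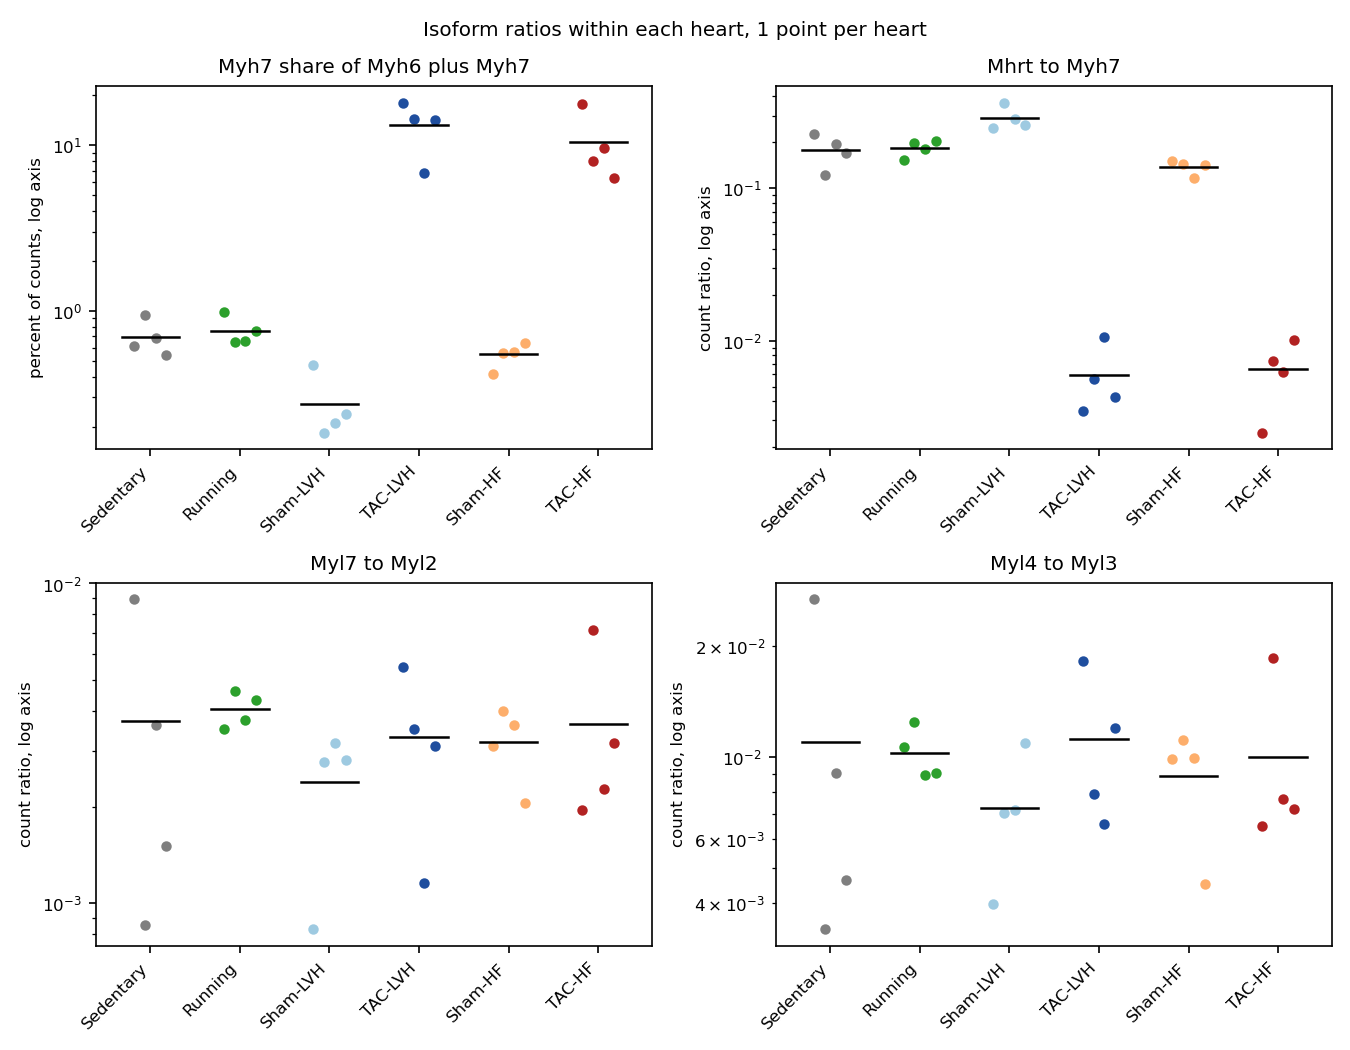
The 4 tested ratios in each library (points) with the group's arithmetic mean (bar), on logarithmic axes. The Myh7 share lies at 6.3% or more in each TAC library and below 1% in the others, the Mhrt to Myh7 ratio lies at 0.0105 or less after TAC and at 0.117 or more elsewhere, and the 2 light chain ratios overlap between TAC and sham hearts.

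The atrial light chain genes are markers of atrial muscle and of the fetal ventricle. Their ratios to the ventricular forms were low everywhere: Myl7 to Myl2 lay between 0.000829 and 0.00894 in the 24 libraries, and Myl4 to Myl3 between 0.0034 and 0.0268. Neither passed the test between TAC and sham hearts over both cohorts (log2 difference 0.235 for Myl7 to Myl2, exact permutation p = 0.563; 0.351 for Myl4 to Myl3, exact permutation p = 0.282), nor within a cohort or with running (exact permutation p from 0.2 to 0.971 over 6 tests). The pooled SD within groups was 0.806 and 0.637 on this scale, larger than either difference. The sign of several of these differences turned when 1 library was left out.

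Myl4 and Myl7 varied together from heart to heart. Myl4 had 17.4, 3.14, 7.95 and 4.03 CPM in the 4 Sedentary libraries and Myl7 had 11.3, 1.38, 5.12 and 2.02 CPM. The same library led for both genes, and the same library was lowest. In TAC-HF replicate 2 was again highest for both, with 15 CPM of Myl4 and 10.2 CPM of Myl7. Over the 24 libraries the log2 levels had a Pearson correlation of 0.89 and a Spearman correlation of 0.78, and of 0.91 (Pearson) after subtraction of the group means. Sln, the sarcolipin gene of atrial muscle, correlated with Myl4 at 0.86 and with Myl7 at 0.87 (0.88 and 0.91 within groups). Sln was the only atrial marker taken for this. The atrial markers Dkk3, Kcna5, Kcnj3, Nppa and Nr2f2, each above 2 CPM in every library, were in the search for like genes given below. No gene in that search had a correlation above 0.644 with Myl4 or 0.607 with Myl7. These points share their library depth and their groups, and the correlations are descriptions.

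The 12 atrial markers other than Nppa ranged widely. Bmp10, an atrial growth factor gene, had 0 counts in 20 of 24 libraries, Sln had 0.0358 to 4.17 CPM, Dkk3 2.69 to 20 and the potassium channel gene Kcnj3 11.3 to 41.4. Of 10 of the 13 that were tested, 2 were higher and 2 lower at 2 weeks of TAC, and 1 higher and 2 lower at 8 weeks. Of all genes 33.2% and 29.6% were called, so this list was called about as often as genes in general. The 13 atrial genes summed to 458 to 814 CPM in TAC-LVH and 348 to 466 in TAC-HF, against 76.2 to 116 in the other groups, but Nppa, which also responds to load in ventricle, made most of this. Without Nppa the other 12 genes summed to 48.5 to 57.3 CPM in TAC-LVH, 57.9 to 71.7 in Sham-LVH, 42.2 to 58.9 in TAC-HF and 56.0 to 67.6 in Sham-HF. How much atrial tissue each sample held was not tested. Among fast skeletal heavy chain genes, Myh1, Myh2 and Myh4 had 0 counts in 14, 15 and 18 of 24 libraries. Sham-HF replicate 1 differed, with 4.32 CPM of Myh4 and 2.32 CPM of Atp2a1, a calcium pump gene of fast muscle. That library had the lowest Myh7 of its group, and without it Myh7 was still called higher at 8 weeks of TAC (log2 3.45, edgeR adjusted p = 0.00256).

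**Figure D4:**
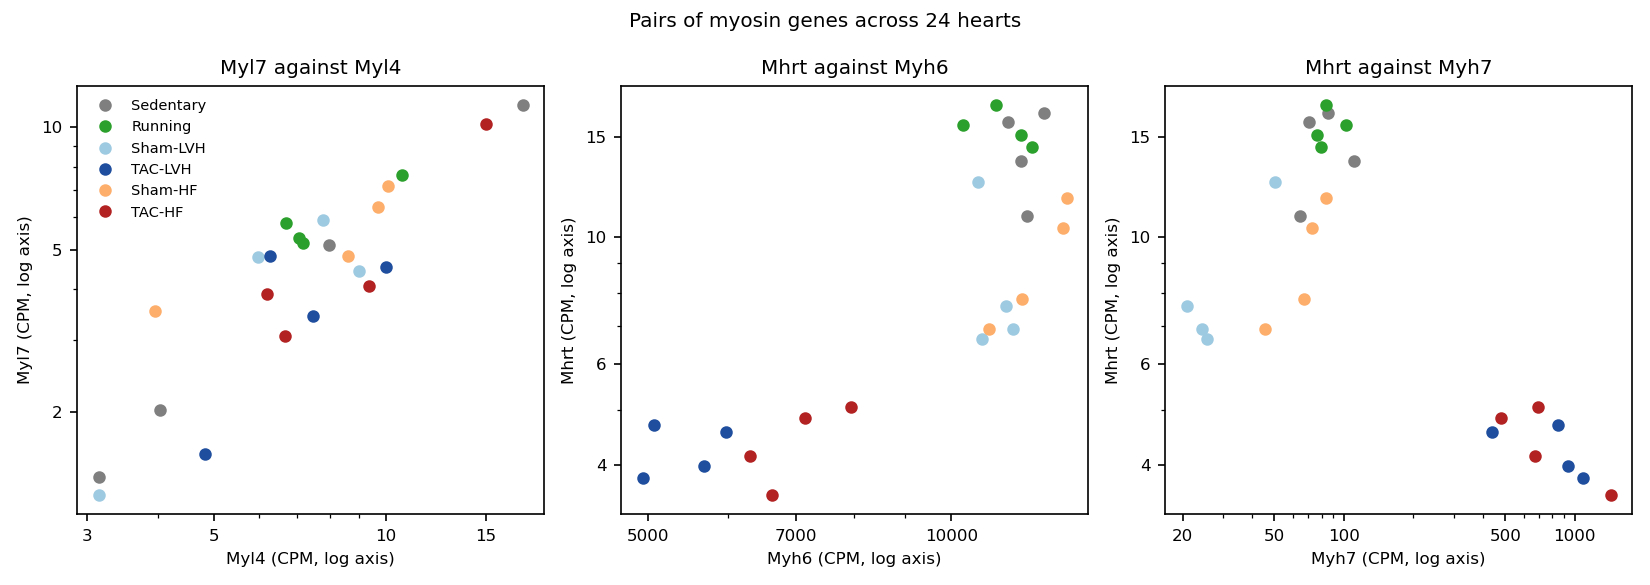
Pairs of genes in the 24 libraries, in CPM on logarithmic axes, with 1 point per library coloured by group. Myl7 follows Myl4 across all groups, with Sedentary replicate 1 and TAC-HF replicate 2 at the top. Mhrt separates the TAC libraries (at most 5.06 CPM) from the shams (at least 6.65 CPM), at low Myh6 and high Myh7.

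Among the heavy chain genes, Myh6 and Myh7 had a Pearson correlation of -0.88 over the 24 libraries and -0.27 within groups, and Myh7 and Myh7b -0.43 and 0.14. Myh6 and Mylk3 had 0.95 over all libraries and 0.65 within groups, and Myl2 and Myl3 had 0.81 on both counts. Myh6 and Mhrt had 0.83 over all libraries and 0.31 within groups, and Myh7 and Mhrt -0.68 and 0.23. The heavy to light balance, Myh6 plus Myh7 counts over Myl2 plus Myl3 counts, was 3.5 ± 0.741 in TAC-LVH and 4.36 ± 0.31 in Sham-LVH, and 3.24 ± 0.688 in TAC-HF and 4.67 ± 0.327 in Sham-HF. It did not overlap between TAC and sham hearts at 8 weeks and did at 2 weeks. No test was made of it.

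The genes whose log2 CPM over the 24 libraries was most like a member's, among 10431 genes with a mean of at least 2 CPM and outside the 9 members, were taken by Pearson correlation, without a test. For Myh6 they were Hrc (0.981), a calcium-binding gene of the sarcoplasmic reticulum, Vps13d (0.975) and Mdh2 (0.969), a malate dehydrogenase gene. Those of Myh7 were Mybpc2 (0.943), the fast form of myosin-binding protein C, Dap (0.936) and Thbs4 (0.932), a matrix protein gene. For Myl4 they were Ero1lb (0.644), Kbtbd2 (0.638) and Cog3 (0.626), and for Myl7 Rae1 (0.607), Cog3 (0.551) and Nepro (0.551).

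Other genes of the myosin system were counted from 5 lists. None of their genes was called with running. Among 11 other myosin heavy chain genes, 4 passed the filter. Myh10 (log2 0.76, adjusted p = 0.00277) and Myh9 (0.66, adjusted p = 0.019), nonmuscle heavy chain genes, rose at 2 weeks of TAC, while Myh14 fell (-0.55, adjusted p = 0.00882; edgeR for each). At 8 weeks Myh10 rose (0.42, adjusted p = 0.0109) and Myh14 fell (-0.57, adjusted p = 0.007), and Myh9 was not called. The median of the 4 was 0.45 and 0.05, beside 0 for all genes at both times, of which 33.2% and 29.6% were called. Scaled to library totals, Myh14 was not called at either time. The call of Myh9 was lost without Sham-LVH replicate 2, TAC-LVH replicate 1 or TAC-LVH replicate 4 (edgeR adjusted p of 0.0583, 0.0577 and 0.0513).

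Of 8 light chain genes outside the cardiac set, 5 passed the filter. All 5 were higher at 2 weeks and 4 at 8 weeks, beside 17.1% and 14.9% of all genes, with medians of 0.62 and 0.61. Myl6, which encodes the essential chain of smooth muscle and nonmuscle cells, had a log2 change of 0.73 and 0.61 at 2 and 8 weeks (edgeR adjusted p = 1.73e-05 and 0.000311). Myl9, a regulatory chain gene of smooth muscle, changed by 0.62 at 2 weeks (adjusted p = 0.000261), and Myl12b, its nonmuscle relative, by 0.55 (adjusted p = 0.000584). At 8 weeks Myl12a changed by 0.88 (edgeR adjusted p = 2.98e-05) and Myl1, the fast skeletal essential chain gene, by 0.92 (adjusted p = 0.000527). The fibroblast gene sums given above were higher in the same hearts. A list of 7 macrophage genes summed to 163 to 206 CPM in TAC-LVH and 93.5 to 135 in Sham-LVH. It summed to 113 to 153 CPM in TAC-HF and 69.3 to 92.4 in Sham-HF. For 6 smooth muscle genes the sums were 102 to 111 CPM in TAC-LVH and 88.7 to 98.8 in Sham-LVH. At 8 weeks they were 79.3 to 105 CPM in TAC-HF and 94.9 to 121 in Sham-HF. The part of any cell type in these light chain changes was not tested.

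Of 7 genes for light chain kinases and the myosin phosphatase, 6 passed the filter, with 2 lower at 2 weeks, 1 lower at 8 weeks and none higher, beside 33.2% and 29.6% of all genes called. Mylk4, a further kinase gene of this family, fell 3.57-fold and 2.28-fold (edgeR adjusted p = 2.96e-06 and 0.000884), and Ppp1r12b, a targeting subunit of the phosphatase, had a log2 change of -0.50 at 2 weeks (adjusted p = 0.00159). Scaled to library totals, 3 genes of this list were higher and 1 lower at 2 weeks, and Ppp1r12b was not called (-0.08). The list median was then 0.29, below the median over all genes on that scale given above. Among 9 tested of 11 thick filament partners and myosin chaperones, 2 were higher and 2 lower at 2 weeks, and 2 higher and 1 lower at 8 weeks, beside the same shares of all genes. Mybpc2 rose 2.94-fold and 2.18-fold (edgeR adjusted p = 5.73e-06 and 7.27e-06). Unc45b, a chaperone that folds the myosin head, changed by -0.70 and -0.58 (adjusted p = 0.00021 and 0.00721), and Smyd1, a muscle methyltransferase gene, by -0.61 at 2 weeks (edgeR adjusted p = 0.000958). Mybpc3, the cardiac form of myosin-binding protein C, rose by 0.33 at 8 weeks (edgeR adjusted p = 0.00936). Scaled to library totals, 5 genes of this list were higher and none lower at either time, and Unc45b (-0.29 and -0.26) and Smyd1 (-0.20) were not called. The list medians were then 0.55 and 0.58, on a scale where the median over all genes also lay above 0.

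Of 21 regulators known to act on myosin genes, 17 were tested: 1 was higher and 6 lower at 2 weeks, and 1 higher and 8 lower at 8 weeks, with medians of -0.18 and -0.31, beside 33.2% and 29.6% of all genes called. Scaled to library totals, this list had 5 higher and 2 lower genes at 2 weeks and 3 higher and 2 lower at 8 weeks. Its medians were then 0.24 and 0.03, both below the medians over all genes on that scale given above. Dio2, the deiodinase that makes active thyroid hormone, rose 9.79-fold and 11.3-fold (edgeR adjusted p = 3.98e-06 and 8.38e-05). Thrb, a thyroid hormone receptor gene, changed by -0.88 and -0.73 (adjusted p = 3.54e-05 and 0.000103). Thyroid hormone is the classic inducer of Myh6 and repressor of Myh7. Its other receptor gene, Thra, changed by -0.58 at 8 weeks (edgeR adjusted p = 0.000709) and was not called at 2 weeks (-0.13, adjusted p = 0.332). Tbx5, a cardiac transcription factor gene, had -0.95 at 2 weeks (edgeR adjusted p = 7.52e-05), and Sox6, a repressor of slow fibre genes in skeletal muscle, had -0.61 at 8 weeks (adjusted p = 0.000384; -0.28 and not called with library totals). Tead1, whose protein binds the MCAT letters shown above, was not called at either time (-0.25, edgeR adjusted p = 0.173; -0.07, adjusted p = 0.735). Thra and Tead1 were singled out after their values were seen.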

How the data were processed

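The authors deposited estimated counts per gene (Salmon's expected counts, written as whole numbers) for 24 libraries. FastQC, Salmon and the build mm9 are named per the submitters' processing notes; the sources used here give no versions, annotation or strand setting. Besides 43432 gene rows, 1 row named no gene and held 0 counts. Symbols came from GENCODE M21 (GRCm38), which named 42548 of 43432 identifiers; since builds differ, coordinates are given only for RefSeq sequences.

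Each comparison was fitted on its own groups with edgeR 4.0.16 in R 4.3.3: filterByExpr, TMM, robust quasi-likelihood F test, Benjamini-Hochberg adjustment over all genes tested, called under 0.05. Folds are 2 to the power of the fitted log2 fold change, 95% intervals use each gene's own residual plus prior degrees of freedom. Ratios were tested over libraries with exact two-sided permutation tests (70 arrangements, or 4900 within cohorts). Ratios of light chains and of Mhrt were tested as log2. Alternatives were other scaling (RLE, library totals), mitochondrial genes left out, no filter, DESeq2 1.42.0, a fit on all 24 libraries, the replicate number as a block, and each library left out. Scripts were tested on simulated data.

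All 9 members are described. From each of 5 lists, up to 3 called genes with the smallest p per comparison were named. Members and lists were chosen with earlier results of these data known. Replicate pairs differed beyond sampling noise.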

Additional observations from a re-analysis of the deposited data

Results flagged for a closer look

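Of 78 sets of 4 libraries (a gene or ratio in a group), 5 held a library whose gap to the nearest other exceeded Dixon's 95% limit; chance gives about 1 in 20. In Sham-LVH, replicate 1 stood apart with 12.5 CPM of Mhrt, where the other 3 had 6.65 to 7.59 CPM, and with 50.2 CPM of Myh7, where the others had 20.8 to 25.6 CPM. Running replicate 2 had 10.7 CPM of Myl4, beside 6.7 to 7.17 CPM. TAC-HF replicate 2 had 10.2 CPM of Myl7, beside 3.07 to 4.06 CPM, and an Myl4 to Myl3 ratio of 0.0185, beside 0.00647 to 0.00769.

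The TAC effect differed from the running effect by the test of the difference (edgeR, log2) for 5 genes at 2 weeks: Myh7 by 4.72 (adjusted p = 7.52e-06), Myh6 by -0.96 (6.39e-05), Mylk3 by -1.01 (3.07e-05), Mhrt by -1.11 (0.00313) and Myl2 by -0.59 (0.0369). At 8 weeks it differed for 4: Myh7 by 3.57 (edgeR adjusted p = 0.000221), Myh6 by -0.71 (0.0012), Mylk3 by -0.58 (0.00623) and Mhrt by -1.17 (0.00193).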

How the results depend on the processing

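Counts of called members were within 1.5 times the reported ones except as follows. DESeq2 called 1 in the 8-week minus 2-week TAC effect and 2 between the shams, where the fit on all 24 libraries called 1. Library totals left 2 in each TAC minus running contrast: Myh6 (-0.47, edgeR adjusted p = 0.086; -0.30, 0.253) and Mylk3 (-0.51, 0.0847; -0.17, 0.586) lost theirs. No filter left 1 between shams and Sedentary. With 1 library left out, members called ranged from 0 to 1 (8-week minus 2-week TAC effect), 0 to 2 (between shams) and 0 to 4 (shams against Sedentary). Counts over all genes moved by over 1.5 times: running 0 to 2 (no filter), 9 (DESeq2) and 47 (replicate block); TAC at 2 weeks 4717 to 7609 and at 8 weeks 4032 to 6643 (library totals, with 91.9% and 91.4% of calls higher in place of 51.5% and 50.4%); 8-week minus 2-week effect 196 to 30 (library totals, 46.7% in place of 68.9% higher) and 626 (DESeq2), and 22 to 654 without 1 library; TAC minus running 2807 to 4720 and 1581 to 3198 (95.5% and 94.7% in place of 49.8% and 51.7%); between shams 497 to 768 (no filter) and 876 (DESeq2), 57 to 1081 without 1 library, and 30.6% in place of 60.6% higher with library totals; shams against Sedentary 2338 to 1141 (36.8% in place of 53.2%), 1357 to 3089 without 1 library. The cause was not tested.

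No called member changed direction. Uncalled ones did. With library totals running gave Myh7 -0.05, Myh7b -0.11, Myl2 -0.01 and Mylk3 -0.03; TAC at 2 weeks gave Myl3 0.01 and Myl7 0.25; TAC at 8 weeks gave Myl2 0.15 and Myl7 0.28; Myl2 in the 8-week TAC minus running contrast was 0.15. Myl3 at 8 weeks was then called (0.44, edgeR adjusted p = 0.00632), and at 2 weeks it was called with RLE, no filter, DESeq2, all 24 libraries and the replicate block (adjusted p from 0.00649 to 0.0495). Leaving out 1 library, running values ranged from -0.05 to 0.22 for Myh7, -0.38 to 0.21 for Myh7b, -0.35 to 0.67 for Myl4 and -0.10 to 1.1 for Myl7. TAC values at 2 weeks ranged from -0.10 to 0.36 for Myl4 and -0.50 to 0.07 for Myl7, and at 8 weeks from -0.14 to 0.36 for Myl4, -0.58 to 0.13 for Myl7 and -0.01 to 0.19 for Myl3. The ratios ranged, for running, from -0.00904 to 0.148 points for the Myh7 share, -0.0347 to 0.957 for Myl4 to Myl3 (-0.000734 as a linear ratio) and -0.0943 to 0.204 for Mhrt to Myh7. For Myl7 to Myl2 they ranged from -0.0164 to 0.876 (TAC at 2 weeks) and -0.359 to 0.264 (8 weeks), and for Myl4 to Myl3 from -0.237 to 0.269 (8 weeks). The Myh7 share at 2 weeks ranged from 11.5 to 15.2 points, and without a Sham-LVH library its exact permutation p was 0.0571. Of the 8 fits that left out 1 library, 4 kept an exact permutation p under 0.05 at 2 weeks and all 8 did at 8 weeks. With groups of unequal size the test has fewer arrangements and can give only coarse p-values. In each fit at 2 weeks the shares stayed apart, at 6.82% or more in TAC-LVH and 0.471% or less in Sham-LVH. These counts therefore do not compare the strength of the change at the 2 times.

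Replicate numbers are shared by the groups, but in no comparison did every same-numbered pair correlate above 0.1 in its deviations from the group means: correlations were 0.0603 to 0.501 for running (3 of 4 over 0.1), 0.00255 to 0.294 for TAC at 2 weeks (3 of 4) and -0.311 to 0.125 at 8 weeks (2 of 4). A library correlated best with its own number for 2, 1 and 2 of the 4 numbers, and the numbers were not taken as pairs. With the replicate block 0, 7 and 5 members were called (running, TAC at 2 and 8 weeks), and the uncalled running values of Myh7b and Myl4 became -0.08 and 0.15. Depth limits Mhrt (74 to 518 counts per library), Myl4 (66 to 564) and Myl7 (29 to 367).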
